A study of Homo sapiens with 8 samples.

Results

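The replication-dependent histone genes are 72 of the 26830 gene symbols in the deposited table. They were chosen by name alone, as the symbols that place a histone H1, H2A, H2B, H3 or H4 gene in the clusters HIST1, HIST2, HIST3 or HIST4. A further 1 name, of a numbered pseudogene, was left out. By type there were 6 H1, 17 H2A, 20 H2B, 14 H3 and 15 H4 genes. By cluster, 55 belonged to HIST1 on chromosome 6, 13 to HIST2 on chromosome 1, 3 to HIST3 on chromosome 1 and 1 to HIST4 on chromosome 12. All 72 matched a gene of the RefSeq annotation of GRCh38.p14, where 70 are protein-coding and 2 (HIST2H2BA and HIST2H2BC) are transcribed pseudogenes.

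The cells were HEK293T, an embryonic kidney line, as labelled. They came from 1 clone that expresses the nuclease Cas9 and so carries it in every group. Of the 4 cultures, 1 received a lentivirus with a negative control guide RNA (sgNS) and each of the other 3 received its own guide against METTL16 (named sgMETTL16-1, -2 and -3, in which order their values are given throughout). METTL16 is an enzyme that methylates RNA, with U6 and the MAT2A transcript as known substrates. Cultures were kept under blasticidin (10 µg/ml) and puromycin (2 µg/ml) for a week or more, and ribosomes were stalled with cycloheximide (100 µg/ml, 5 min) before harvest. Input RNA and ribosome footprints (RNA fragments of 17 to 34 nt shielded by ribosomes) were sequenced from each culture as separate libraries, both depleted of ribosomal RNA. The guide could not be told apart from the state of the lone sgNS culture.

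Cells make these histone mRNAs in S phase, when new DNA has to be packed into nucleosomes. The genes have no introns in their coding part, and the mRNAs normally end in a conserved stem-loop instead of a poly(A) tail, so libraries depleted of ribosomal RNA can hold them where poly(A) selection would lose most of them. H2A, H2B, H3 and H4 form the protein core of the nucleosome, while H1 binds the linker DNA between cores. Replacement histones, such as H2A.Z, are made outside S phase too, mostly from genes with ordinary polyadenylated mRNAs.

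Levels are given as TPM, a unit in which every library adds up to 1000000 and each gene is scaled by its transcript length. Sequencing depth is not known, as read totals were not used here. Protein-coding genes held 20.1% to 26.4% of input TPM. All 12 listed hepatocyte markers stood at 10 TPM or more in every input. Of 11 HEK293 markers in the table, 6 were under 1 TPM in every input, 5 of them (NEFL, NEFM, VIM, SOX11 and GATA3) at 0. The keratins KRT8 and KRT18, which hepatocytes also make, were at 309 to 796 TPM, and NES, ENO2 and CDH2 at 6.13 to 12.1 TPM. The 11 summed to 687 TPM in sgNS and 1178, 1327 and 1234 TPM with the METTL16 guides, mostly from KRT8 and KRT18 in each input. Apart from these keratins, no marker of the labelled line exceeded 12.1 TPM in any input. The markers thus gave little sign of the labelled line, and the identity of the cells was not tested. All 6 fibroblast markers were under 1 TPM in every input, as were 4 of 6 blood markers. The other blood markers were LYZ (lysozyme), at 194 to 620 TPM, and HBA1, at 1.55 to 1.72 TPM. METTL16 input RNA was 5.31 TPM in sgNS and 4.72, 5.25 and 4.16 TPM with the METTL16 guides. Its footprints were 19.8 TPM in sgNS and were listed at 0 with every METTL16 guide. Zeros were common there, at 53.4% of all genes tested in the footprints of sgMETTL16-3. These values do not check whether the METTL16 protein was lost.

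Input RNA of the replication-dependent histone genes was lower in all 3 sgMETTL16 cultures than in the sgNS culture. Summed over the 72 genes it was 27999.98 TPM in sgNS, or 2.80% of that library. The sums were 12311 TPM in sgMETTL16-1, 8180 TPM in sgMETTL16-2 and 6918 TPM in sgMETTL16-3, which are 44.0%, 29.2% and 24.7% of the sgNS sum. The groups did not overlap, and sgMETTL16-1 lay nearest to the control. The mean log2 difference was -1.66 (SD 0.43, n = 3), a 3.16-fold lower geometric mean. An exact two-sided permutation test gave p = 0.25, the smallest that 1 culture against 3 allows. In bulk RNA, fewer cells in S phase and less histone mRNA per cell cannot be told apart.

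Gene by gene, 56 of the 72 genes had a mean input TPM of 1 or more and entered the test, and 51 of these passed the threshold (limma adjusted p under 0.05 over all 10967 genes tested), all lower. Over all tested genes 2.83% were called in either direction and 1.25% were called lower. The median log2 change of the 56 was -1.99, beside -0.06 for all tested genes, and 39 of the 50 lowest changes in the table belonged to these histone genes. All 42 tested histone genes at 100 TPM or more in sgNS were called, but that limit itself favours genes that are high in sgNS. The share called among all genes at that level was not counted. HIST1H2BH passed the filter only through its sgNS level, since its mean over the sgMETTL16 inputs was under 1 TPM. These changes are on the log2(TPM + 1) scale, after each library was centred on its median tested gene.

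The calls depended on how the libraries were scaled. With TPM rescaled over protein-coding genes and without that centring, limma called 47 of 56 tested histone genes, all lower. In that setting it called 368 of all 11808 genes in either direction. The median tested gene was at 2.45 on the log2(TPM + 1) scale in the sgNS input and at 3.08, 3.23 and 2.62 in the sgMETTL16 inputs. On TPM as deposited limma called none of the 56 histone genes (smallest adjusted p = 0.126) and 23 of all 10967 genes. Unadjusted p was under 0.05 for 46 of the 56, beside 1609 of the 10967. There the histone median was -1.46 and the median of all tested genes 0.46. Centring shifts the log2 change of every gene by the same amount, so it cannot alter the gap between these medians. The 12 hepatocyte markers summed to 5668 TPM in the sgNS input and to 9457, 10109.9 and 6261 TPM in the sgMETTL16 inputs, and their part in the histone result was not tested. Without sgMETTL16-1, 27 histone genes were called, all among the 51.

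Direct comparison of libraries needed no model. On TPM as deposited, 54 of the 56 tested histone genes were below the sgNS value in all 3 sgMETTL16 libraries, where 5.37% of all tested genes were. The exceptions were HIST1H2BI and HIST2H2BC, each higher in sgMETTL16-1 than in sgNS. In 27 of the 56 all 3 values were under 50% of the sgNS value, as they were in 0.346% of all tested genes. After centring, all 56 were below sgNS in all 3 libraries, beside 34.2% of tested genes. Among the 3 guides, sgMETTL16-1 had the highest TPM in 54 of the 56 genes and sgMETTL16-3 the lowest in 51. After centring, sgMETTL16-1 was the highest in 50 and sgMETTL16-2 the lowest in 54. The order of sgMETTL16-2 and sgMETTL16-3 thus depended on scaling, and the same counts over all tested genes were not made.

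**Figure D1:**
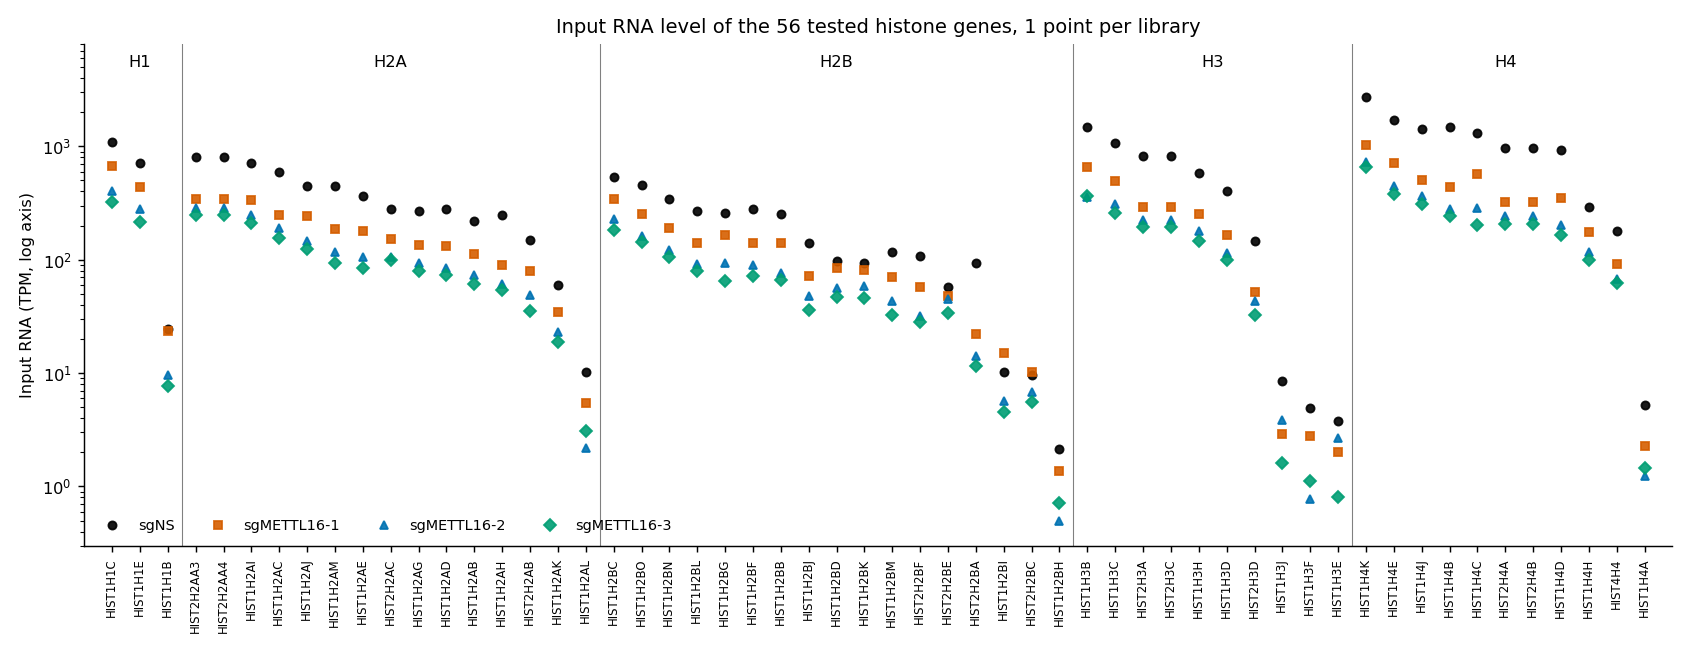
Input RNA in TPM (log axis) of the 56 tested histone genes, ordered by type and by mean level, with 1 point for each of the 4 input libraries. The black sgNS points lie above the sgMETTL16 points in 54 genes, and the exceptions are HIST1H2BI and HIST2H2BC, at the low end of H2B.

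Fold by fold, the types were ordered alike whether summed or taken gene by gene, with H4 lowest against sgNS and H1 and H2B nearest to it. H4 RNA summed to 12007 TPM in sgNS and to 4502, 2985 and 2531 TPM in the 3 sgMETTL16 inputs, a 3.71-fold lower geometric mean. H3 sums were 5336 TPM in sgNS and 2223, 1459 and 1292 TPM, 3.31-fold lower. For the partners in the H2A-H2B dimer the folds were 2.87 (H2A) and 2.46 (H2B), and for the linker histones (H1) 2.44. Each of these had the exact permutation p of 0.25 that the design sets as its floor, and the differences between types were not tested. Median log2 changes of tested genes were -2.43 for H4 (11 genes), -2.19 for H3 (10), -2.002 for H2A (15), -1.87 for H2B (17) and -1.79 for H1 (3).

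**Figure D2:**
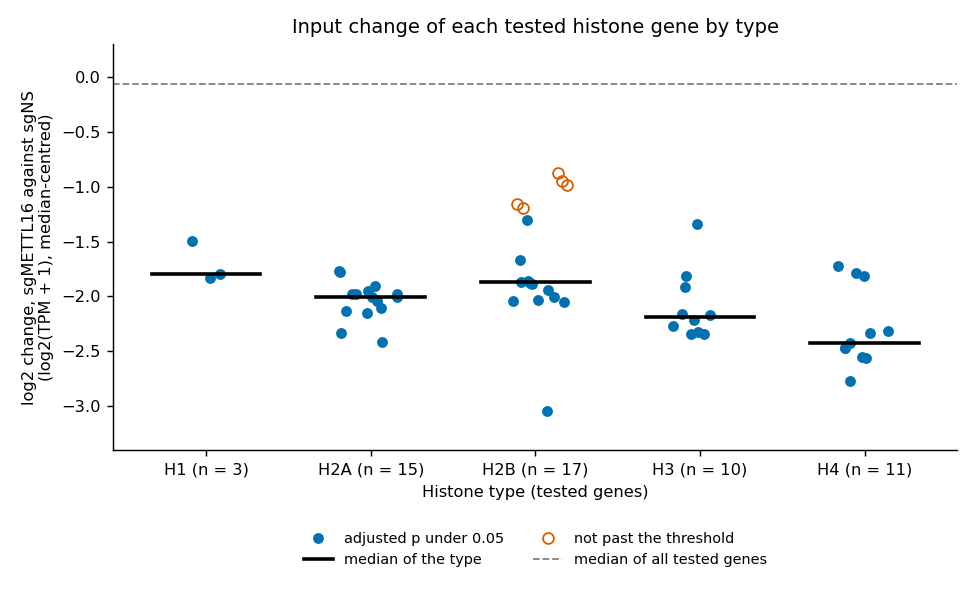
Log2 change of input RNA (sgMETTL16 against sgNS, log2(TPM + 1), median-centred) for each tested histone gene by type, where filled points passed the threshold, open points did not and horizontal bars are type medians from -1.79 (H1) to -2.43 (H4). The 5 open points are all H2B genes, and every point lies below the dashed median of all tested genes at -0.06.

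The makeup of the histone RNA does not depend on how a library is scaled. H4 made up 42.9% of histone TPM in the sgNS input and 36.6%, 36.5% and 36.6% in the sgMETTL16 inputs. H2B made up 11.2% in sgNS and 14.9%, 14.3% and 13.9% under the METTL16 guides, and H1 made up 6.57% and 9.25%, 8.496% and 7.87%. For each of these types the 3 sgMETTL16 libraries lay on one side of sgNS. For H4 and H2B the distance to sgNS was wider than the range of the 3, and for H1 it was not. H2A was at 20.3% in sgNS and 21.2%, 22.8% and 23.0%, and H3 at 19.1% and 18.1%, 17.8% and 18.7%. For these types too the sgMETTL16 libraries lay on one side of sgNS, at a distance smaller than their own range. With 1 sgNS library these shares are a description with no test.

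Nearly all H4 genes encode the same core protein, and their RNAs were the most abundant and the furthest below sgNS. HIST1H4K (H4C12, chromosome 6, 27831174 to 27831560) had the highest mean level of all members, at 2717 TPM in sgNS and 1024, 729 and 659 TPM with the METTL16 guides. All 3 lay far below sgNS, with a log2 change of -2.31 (SE 0.47, limma adjusted p = 0.00011). HIST1H4E (H4C5), the next in level, read 1723 TPM in sgNS and 706, 450 and 377 TPM (-2.33, SE 0.46, limma adjusted p = 5.0e-05). HIST1H4B (H4C2) was the lowest of the type, from 1477 TPM in sgNS to 439, 282 and 244 TPM (321.7 ± 103.5, SD, n = 3), a log2 change of -2.77 (SE 0.45, limma adjusted p = 2.5e-07). Only 4 of the 10967 tested genes ranked below it. HIST1H4D, HIST1H4C, the pair HIST2H4A and HIST2H4B, and HIST1H4J were close behind, from -2.56 to -2.43, and HIST1H4A, at 5.25 TPM in sgNS, was at -1.79. At the other end stood HIST1H4H, with 293 TPM in sgNS and 177, 117 and 100.0 TPM, which still passed the threshold (-1.72, SE 0.42, limma adjusted p = 0.0030). HIST4H4, the lone HIST4 gene, was at 179 TPM in sgNS and 92.5, 67.2 and 62.3 TPM and was called lower as well (-1.81, limma adjusted p = 0.00078). HIST1H4F, HIST1H4G and HIST1H4L were listed at 0 in all inputs, and HIST1H4I did not exceed 0.25 TPM.

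All 10 tested H3 genes, which encode the canonical forms of the histone whose tail carries many of the known chromatin marks, were called lower. HIST1H3B (H3C2) was the most abundant, at 1476 TPM in sgNS and 657, 359 and 361 TPM in the 3 sgMETTL16 inputs. Its change was -2.27 (SE 0.46, limma adjusted p = 7.6e-05). HIST1H3C (H3C3) went from 1072 TPM in sgNS to 497, 312 and 259.55 TPM (-2.17, SE 0.45). The lowest change in the type was that of HIST2H3A, at 820.3 TPM in sgNS and 293, 222 and 194 TPM (-2.34, SE 0.44, limma adjusted p = 1.7e-05). HIST2H3C had identical values to HIST2H3A in all 8 libraries, so the 2 cannot be told apart in this table and are not separate evidence. The same held for HIST2H4A and HIST2H4B. HIST1H3E moved least, between 3.77 TPM in sgNS and 2.03, 2.65 and 0.81 TPM, and its low level makes the log2(TPM + 1) scale understate the change (-1.34, SE 0.32, limma adjusted p = 0.0018). The other 5 tested H3 genes lay between -2.32 and -1.81. HIST1H3A, HIST1H3G, HIST1H3I and HIST3H3, the last a testis form, were under 1 TPM in every input.

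All 15 tested H2A genes were called lower, over the narrowest range of the core types, -2.42 to -1.77. HIST2H2AA3 and HIST2H2AA4, a duplicated pair with identical values in all 8 libraries, had the highest level, at 807 TPM in sgNS and 341, 286 and 249.97 TPM under the METTL16 guides. Their shared change was -2.002 (SE 0.44, limma adjusted p = 0.00050). HIST1H2AH was the lowest, from 248 TPM in sgNS to 89.5, 60.6 and 54.1 TPM (-2.42, SE 0.41, limma adjusted p = 1.3e-06). HIST1H2AK lay at the upper end, with 59.6 TPM in sgNS and 34.4, 23.3 and 18.6 TPM (-1.77, SE 0.39). The other 11 lay between -2.33 and -1.78. None of the 15 had a sgMETTL16 value that reached its sgNS value. HIST1H2AA, a germ-cell form, and HIST3H2A were listed at 0 in all inputs.

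H2B was the type in which genes differed most. HIST1H2BC, the most abundant, was at 535 TPM in sgNS and 346, 227 and 182 TPM in the sgMETTL16 inputs (-1.67, SE 0.44, limma adjusted p = 0.0075). HIST1H2BO (H2BC17) followed at 458 TPM in sgNS and 252, 162 and 142 TPM (-1.87, SE 0.43, limma adjusted p = 0.0010). These changes lay close to the median of the type. The lowest of all members was HIST2H2BA (H2BP1), a transcribed pseudogene that lies apart from the rest of HIST2 (chromosome 1, 121107175 to 121117292). It read 92.7 TPM in sgNS and 22, 14.2 and 11.6 TPM, a log2 change of -3.04 (SE 0.39, limma adjusted p = 5.8e-12) and the third lowest of all tested genes. The other 9 called H2B genes lay between -2.05 and -1.30, where HIST1H2BH, at 2.13 TPM in sgNS, was the highest. HIST1H2BA, a testis form, HIST1H2BE and HIST3H2BB were under 1 TPM in every input.

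The 5 histone genes that were tested and did not pass were all H2B. HIST1H2BD was at 96.9 TPM in sgNS and 84.9, 56.6 and 46.6 TPM in the sgMETTL16 inputs (-1.19, SE 0.41, limma adjusted p = 0.093). HIST1H2BK was at 93.5 TPM and 80.7, 58.5 and 45.8 TPM (-1.16, limma adjusted p = 0.113). HIST2H2BE was at 57.5 TPM and 47.6, 45.1 and 33.8 TPM (-0.98, limma adjusted p = 0.228). In these 3 every sgMETTL16 value was below sgNS, but by less than in the other genes of their level. HIST1H2BI read 10.3 TPM in sgNS and 15.1, 5.67 and 4.58 TPM (-0.95, limma adjusted p = 0.204). The pseudogene HIST2H2BC read 9.57 TPM in sgNS and 10.3, 6.81 and 5.53 TPM (-0.87, limma adjusted p = 0.269). Both therefore overlapped the sgNS level through sgMETTL16-1. HIST1H2BD and HIST1H2BK were called lower without sgMETTL16-3 and under 3 of the other settings tried, and HIST2H2BE only without sgMETTL16-3.

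HIST1H2BD, HIST1H2BK and HIST2H2BE share a long RefSeq gene model, of 13229, 8566 and 2224 bases, where 63 of the 72 members span fewer than 1000 bases. Of the 9 members whose model spans 1000 bases or more, 6 were called, with a median change of -1.67, and of the 47 tested members with shorter models 45 were called, with a median of -2.002. The long models also include HIST2H2BA and HIST2H2BF, which were among the lower ones (-3.04 and -2.05). TPM divides by the length of the model that the authors used, and how much of each long model was covered by reads was not tested.

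The linker histone H1 genes moved with the core genes. HIST1H1C (H1-2) was at 1098 TPM in sgNS and 676.5, 404 and 320.0 TPM with the METTL16 guides (-1.83, SE 0.45, limma adjusted p = 0.0032). HIST1H1E (H1-4) was at 716 TPM and 437, 280.0 and 216 TPM (-1.79, SE 0.44, limma adjusted p = 0.0032). In both, the sgMETTL16 values were all below sgNS. HIST1H1B (H1-5), much rarer, read 24.4 TPM in sgNS and 23.3, 9.56 and 7.67 TPM, so that on TPM as deposited sgMETTL16-1 nearly met the control (-1.49 after centring, SE 0.38, limma adjusted p = 0.0050). HIST1H1D reached 1.74 TPM at most, and HIST1H1A and the testis gene HIST1H1T were under 1 TPM in every input.

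Median changes were close across the genome positions of the genes, which were not tested against each other. The HIST1 genes lie in a pair of blocks on chromosome 6, from 25726063 to 26285534 (34 members) and from 27132316 to 27893891 (21 members). Median changes were -2.004 over the 24 tested genes of the former and -1.95 over the 18 of the latter. In HIST1, 39 of 42 tested genes were called lower (median -1.96), in HIST2 11 of 13 (median -2.05), and no HIST3 gene reached 1 TPM. The 4 germ-cell histones among the members (HIST1H1T, HIST1H2AA, HIST1H2BA and HIST3H3) were all under 1 TPM, with a summed level of 0.07 to 0.31 TPM per input.

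Many H2A and H2B genes start head to head, back from a shared stretch of promoter DNA. Pairs on opposite strands with starts within 500 bases were counted among the 65 members with a RefSeq promoter window. There were 12, of which 11 joined an H2A to an H2B gene, at distances of 194 to 248 bases. Members without such a window were not assessed, so further pairs can be missing. Both genes were tested in 10 pairs, and their changes differed by 0.14 in the median. HIST1H2BL and HIST1H2AI were closest, at -1.94 and -1.98. Of these 10 pairs, HIST2H2BE and HIST2H2AC were furthest apart, at -0.98 and -1.78. HIST1H2AH, which had no window, spans 27147106 to 27147562, near the start of HIST1H2BK at 27146858. Their changes, -2.42 and -1.16, lay further apart than in any counted pair, and whether they start head to head was not assessed. HIST1H2AD and HIST1H3D share 1 start in RefSeq, so HIST1H2BF was counted with both.

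**Figure D3:**
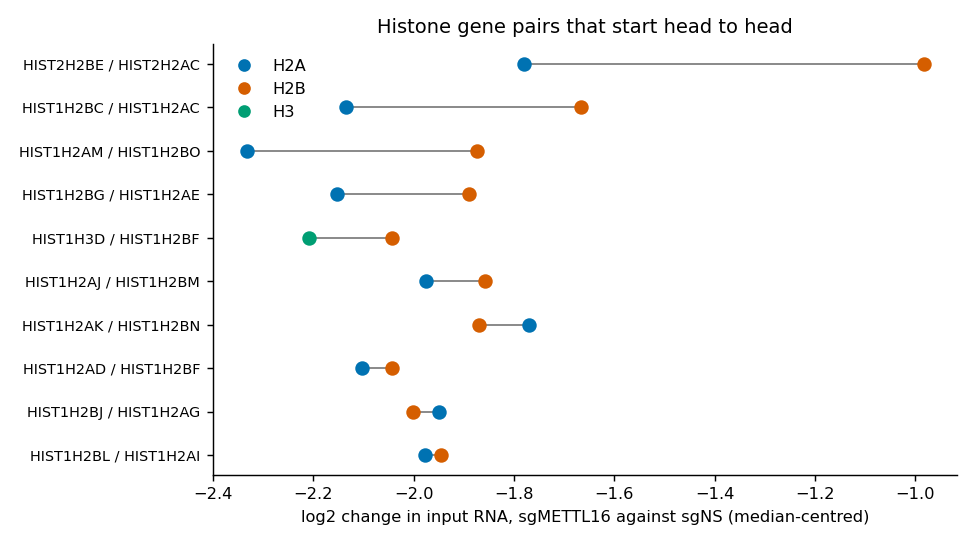
Log2 change of input RNA (sgMETTL16 against sgNS, log2(TPM + 1), median-centred) of both genes in 10 head-to-head pairs, joined by a line and coloured by type. The pairs are those with both genes tested among the members with a RefSeq promoter window. The distance within a pair runs from 0.03 for HIST1H2BL and HIST1H2AI to 0.80 for HIST2H2BE and HIST2H2AC.

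Since the members moved together, their promoters were searched for 5 short words on both strands. ATTTGCAT is the octamer bound by OCT1, CCAAT is the box bound by NF-Y and TATAAA is the core of the TATA box. AAACACA is known from H1 promoters, and GGTCCG is part of the H4 element bound by HINFP. RefSeq windows of 250 bases before to 50 after the start were at hand for 65 members. The 250 bases before the start of 5 genes are shown, with every match on either strand in capitals: the H4 gene with the lowest change, an abundant H2B gene, an H2B gene that was not called, the most abundant H3 gene and the most abundant H1 gene. They run 5′ to 3′ on the gene's own strand (RefSeq, GRCh38.p14).
HIST1H4B (chr6:26027284-26027533, minus strand): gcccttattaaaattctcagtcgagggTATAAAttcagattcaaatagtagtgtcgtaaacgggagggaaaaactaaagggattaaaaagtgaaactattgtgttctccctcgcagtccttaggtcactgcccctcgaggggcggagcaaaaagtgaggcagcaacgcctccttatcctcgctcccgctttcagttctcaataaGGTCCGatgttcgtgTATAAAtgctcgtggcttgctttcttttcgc
HIST1H2BO (chr6:27893175-27893424, plus strand): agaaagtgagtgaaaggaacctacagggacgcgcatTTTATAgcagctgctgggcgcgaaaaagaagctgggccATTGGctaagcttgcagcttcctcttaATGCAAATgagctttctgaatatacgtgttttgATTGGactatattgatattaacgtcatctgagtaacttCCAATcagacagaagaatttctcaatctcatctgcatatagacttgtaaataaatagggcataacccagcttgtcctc
HIST2H2BE (chr1:149886683-149886932, minus strand): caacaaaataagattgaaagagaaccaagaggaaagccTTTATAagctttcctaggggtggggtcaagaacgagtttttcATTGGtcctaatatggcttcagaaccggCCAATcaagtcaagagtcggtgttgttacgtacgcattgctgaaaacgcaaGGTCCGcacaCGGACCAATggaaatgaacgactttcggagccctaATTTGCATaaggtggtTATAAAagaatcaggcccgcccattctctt
HIST1H3B (chr6:26032100-26032349, minus strand): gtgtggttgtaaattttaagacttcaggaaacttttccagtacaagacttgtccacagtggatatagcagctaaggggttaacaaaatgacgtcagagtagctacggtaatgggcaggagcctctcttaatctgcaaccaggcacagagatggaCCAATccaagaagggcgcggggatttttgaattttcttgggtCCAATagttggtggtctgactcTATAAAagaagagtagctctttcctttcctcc
HIST1H1C (chr6:26056471-26056720, minus strand): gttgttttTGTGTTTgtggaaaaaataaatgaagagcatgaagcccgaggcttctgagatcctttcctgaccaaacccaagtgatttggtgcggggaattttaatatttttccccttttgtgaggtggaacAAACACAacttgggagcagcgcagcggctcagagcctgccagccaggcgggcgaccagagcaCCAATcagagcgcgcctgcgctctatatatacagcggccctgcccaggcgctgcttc

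The words were spread unevenly over the histone types. ATTTGCAT was in 26 of the 65 member windows and in 2.19% of the 27305 genes with a window. It stood in 14 of 18 H2B and 11 of 16 H2A windows and in no H1 or H4 window. These windows are not all separate DNA. Head-to-head partners start 194 to 248 bases apart, so their windows overlap and a site can be counted for both genes. GGTCCG, in 13.4% of all genes, was in 12 of 13 H4 windows, and in HIST1H4B it begins 46 bases before the start, ahead of a TATAAA at 31. Those 2 words are in the window of HIST2H2BE as well. AAACACA (6.94% of all genes) was in all 6 H1 windows. CCAAT, which is common (39.7% of all genes), was in every H1, H2A, H2B and H3 window and in 3 of 13 H4 windows, and TATAAA was in 44 of 65 (14.0% of all genes). Within H2B the median change was -1.86 for the 12 tested genes with ATTTGCAT and -1.87 for the 3 without. HIST2H2BE, with the octamer 46 bases and TATAAA 30 bases before its start, was not called, while HIST1H2BO was. The octamer match 149 bases before the start of HIST1H2BO is on the opposite strand. It lies in the stretch shared with HIST1H2AM, which starts 240 bases away, and which gene it belongs to was not tested. A match is a description of the letters and shows no binding.

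Genes that make, process or carry histones were read from the same fit. Of 10 tested replacement histones none passed the threshold (limma, all 10 below 0, median -0.74). Unadjusted p was under 0.05 for 5 of them, beside 1226 of all 10967 tested genes. The 2 with the smallest p follow. H2AFX, the H2A form phosphorylated at DNA breaks, was at 114 TPM in sgNS and 88.2, 73.1 and 68.3 TPM in the sgMETTL16 inputs (-1.11, limma adjusted p = 0.149). H2AFZ, which encodes H2A.Z, was at 49.8 TPM and 43.2, 47.1 and 18.4 TPM (-1.09, limma adjusted p = 0.136). Under 3 alternative settings 2 of the 10 were called and without sgMETTL16-3 1 was. On TPM as deposited the median of the 10 was -0.21, beside -1.46 for the replication-dependent genes.

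Among the factors that transcribe and process histone mRNA, 1 of 20 tested genes passed the threshold. That was SNRPF, an Sm protein of the spliceosomal and U7 particles, at 26.3 TPM in sgNS and 14.2, 19.5 and 9.49 TPM (-1.41, SE 0.38, limma adjusted p = 0.011). The median of the 20 was -0.19. SLBP, the protein that binds the stem-loop, was at 3.55 TPM in sgNS and 5.59, 8.89 and 3.01 TPM, a change of -0.04 (limma adjusted p = 0.994). SLBP was named for its role after its value was seen. Of 16 tested chaperones and transporters of histones (median -0.40), 1 passed: ASF1B, which hands H3 and H4 to the assembly machinery, at 14.1 TPM in sgNS and 11.7, 7.74 and 6.16 TPM (-1.23, SE 0.37, limma adjusted p = 0.038). Neither SNRPF nor ASF1B was called on TPM as deposited or without sgMETTL16-1, and ASF1B also not without sgMETTL16-2, with no filter on low values or with TPM rescaled over protein-coding genes. The whole lists stayed nearer to the all-gene median of -0.06 than the histone median of -1.99.

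Ribosome footprints of histone genes were sparse. Of the 72 members 24 had a value above 0 in sgNS, and 32, 35 and 15 had one in the sgMETTL16 libraries. Summed footprints were 8337 TPM in sgNS, 7777 TPM in sgMETTL16-1, 7099.7 TPM in sgMETTL16-2 and 1683 TPM in sgMETTL16-3. The last stood apart: the other sgMETTL16 sums were 93.3% and 85.2% of sgNS, that of sgMETTL16-3 20.2%. The mean log2 difference was -0.88 (SD 1.24, n = 3, exact two-sided permutation p = 0.50), and without sgMETTL16-3 it was -0.17. In that library protein-coding genes held 11.9% of TPM, beside 26.8% to 28.3% in the other footprint libraries, and the part this played was not tested.

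Of 39 histone genes tested in the footprints, 2 passed the threshold (limma, after division of each library by a median-ratio factor), where 6.54% of all 9297 tested genes did. The median log2 change of the 39 was -0.06, beside 0.89 for all tested genes, and the gap was not tested. HIST1H2AI was called lower, as 5.84% of genes were: it had 390 TPM in sgNS and was listed at 0 with every METTL16 guide (limma adjusted p = 0.033). HIST1H2AJ was called higher, as 0.699% of genes were: it was listed at 0 in sgNS, and the METTL16 guides gave 147, 305 and 69.9 TPM (limma adjusted p = 0.046). All 543 lower calls of the whole table were at 0 in the 3 sgMETTL16 libraries and above it in sgNS, and 64 of 65 higher calls at 0 in sgNS. Both histone calls have this form, and each was lost when any 1 sgMETTL16 library was left out. These 2 neighbours on chromosome 6 encode the same type, and reads that fit both could be split between them in either way.

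A total of 10 histone genes were above 0 in all 4 footprint libraries, as 20.1% of tested genes were. HIST1H3B had the most footprints, at 1493 TPM in sgNS and 1325, 1719.7 and 414 TPM with the METTL16 guides. HIST1H3C was at 1121 TPM in sgNS and 161, 167 and 172 TPM. So these H3 genes, alike in the input, differed here: the former overlapped sgNS and the latter stayed far below it in all 3. HIST1H4K was at 177 TPM in sgNS and 743, 771 and 88.5 TPM. HIST1H4E was at 659 TPM and 434, 180.0 and 82.6 TPM, and HIST1H4D at 339 TPM and 89.3, 185 and 85.04 TPM. The H4 genes thus did not share a pattern, since HIST1H4K was above sgNS in a pair of libraries where HIST1H4E and HIST1H4D lay below. HIST1H2AH was at 759 TPM in sgNS and 199.8, 92.2 and 63.3 TPM. HIST1H2AE was at 213 TPM and 281, 156 and 107 TPM, and HIST1H2AC at 110.4 TPM and 233, 282 and 55.2 TPM. Only HIST1H2AH of these H2A genes was below sgNS in all 3. HIST1H3D was at 382 TPM in sgNS and 339, 303 and 63.6 TPM, and HIST1H3H at 129 TPM and 346, 282 and 129 TPM. None of the 10 passed the threshold (limma adjusted p from 0.266 for HIST1H3C to 0.952 for HIST1H3B). Unadjusted p was under 0.05 for 3 of them, beside 1152 of all 9297 genes tested in the footprints.

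**Figure D4:**
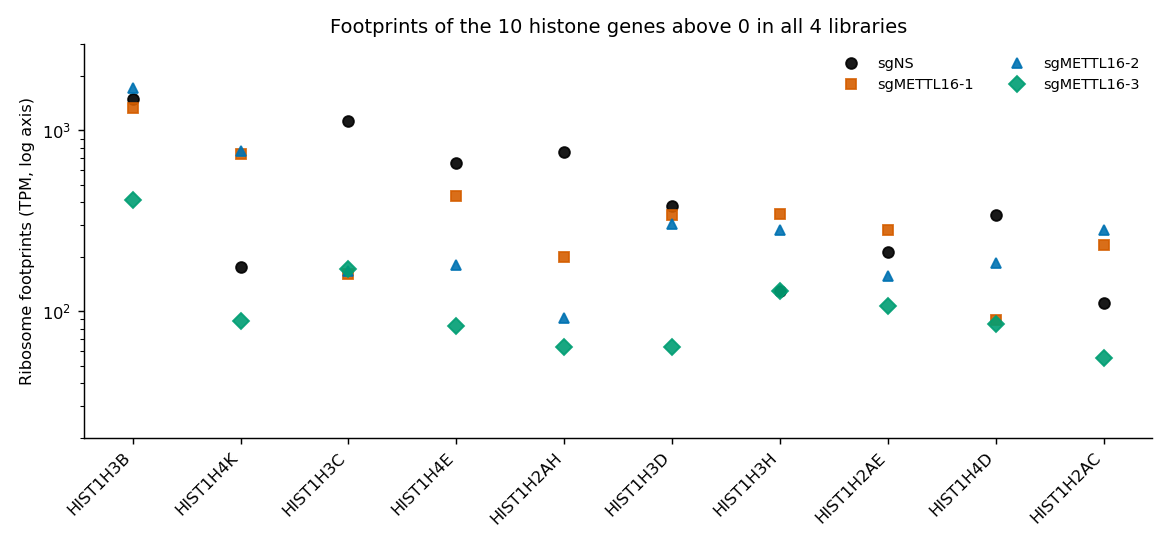
Ribosome footprints in TPM (log axis) of the 10 histone genes above 0 in all 4 footprint libraries, ordered by mean level, with 1 point per library. The sgMETTL16-3 points are lowest or level with the lowest in all but HIST1H3C, where the sgMETTL16 points lie at 161 to 172 TPM and sgNS at 1121 TPM.

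Other members were at 0 in part of the libraries. Of the 39 tested, 24 were at 0 in sgMETTL16-3, where 53.4% of all tested genes were, and 15 at 0 in sgNS, beside 50.7%. A further 17 genes that were tested in the input had no footprint in any library. Among them was HIST1H4J, the input of which was 1432 TPM in sgNS, so a zero here is no sign that a gene is silent. The 16 genes below the input filter were also at 0 in every footprint library.

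The footprint to input ratio compares ribosome-bound with total RNA of a gene or type. Over all members, the ratio of summed TPM was 0.298 in the sgNS culture and 0.632, 0.868 and 0.243 with the METTL16 guides. The sgMETTL16 cultures thus lay on both sides of sgNS (mean log2 difference 0.78, SD 0.96, n = 3, exact two-sided permutation p = 0.75). With both sums taken as shares of protein-coding TPM the ratios were 0.226 in sgNS and 0.602, 0.808 and 0.411, all 3 above sgNS (mean log2 difference 1.37, exact two-sided permutation p = 0.25). The order of sgMETTL16-3 and sgNS therefore turned with the denominator.

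By type, H3 had the highest ratio and H2A the next in all 4 cultures. The H3 ratio was 0.586 in sgNS and 1.01, 1.82 and 0.603 under the METTL16 guides. That of H2A was 0.382 in sgNS and 0.738, 0.728 and 0.274, and that of H4, the most abundant type in the input, 0.166 and 0.523, 0.717 and 0.101. A pair of genes held most of the H3 footprints. HIST1H3B and HIST1H3C held 83.6%, 66.5%, 71.1% and 75.3% of H3 footprint TPM in the sgNS and the 3 sgMETTL16 cultures, but 46.0% to 52.0% of H3 input TPM. Without them the H3 ratio was 0.183 in sgNS and 0.701, 0.973 and 0.287. It was then below the ratio of H2A in sgNS and sgMETTL16-1 and above it in sgMETTL16-2 and sgMETTL16-3.

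**Figure D5:**
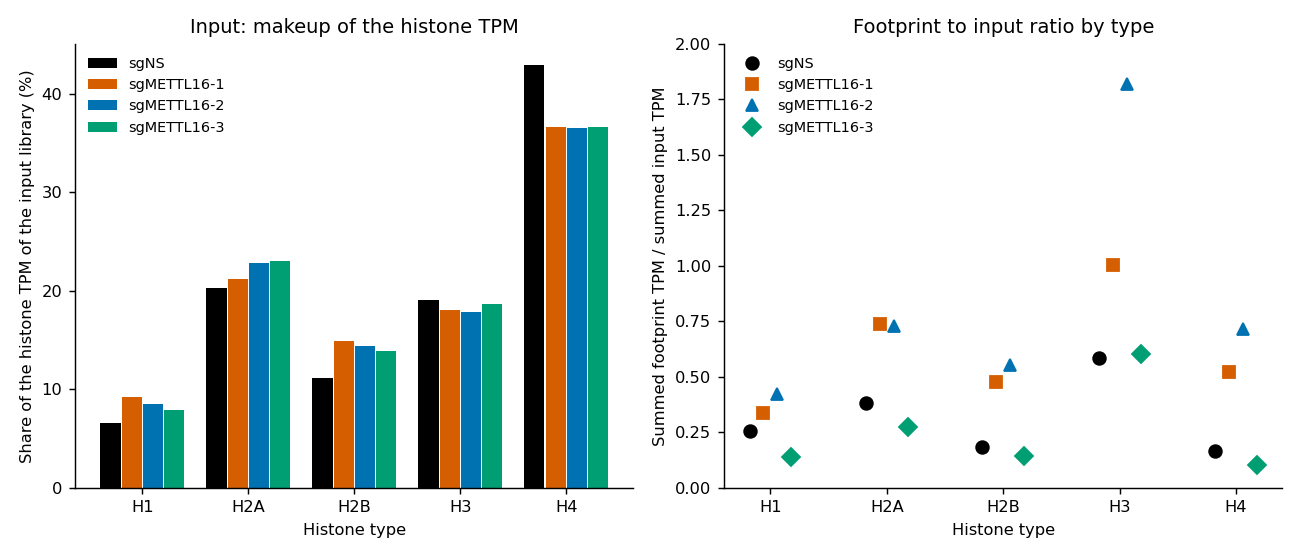
Left, the share of each histone type in the histone TPM of the 4 input libraries (percent, bars from 0), where H4 is at 42.9% in sgNS and 36.5% to 36.6% under the METTL16 guides. Right, the ratio of summed footprint to summed input TPM by type, 1 point per culture, where H3 is highest in every culture and sgMETTL16-3 lies apart from the other METTL16 guides.

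Gene by gene, 2 of 39 tested histone genes passed the threshold for a change in that ratio (limma interaction of guide and library kind), beside 0.737% of 8002 genes. They were again HIST1H2AI, lower (as 0.187% of genes were), and HIST1H2AJ, higher (as 0.55% were), both at a limma adjusted p of 0.028, and all 59 calls of the table had footprints at 0 on one side. With the culture as a replicate block none of the 39 was called (limma adjusted p = 0.253 and 0.187 for those genes), nor was any of the 8002. HIST1H3H came closest among the genes with footprints everywhere, with a log2 change of the ratio of 3.55 (limma adjusted p = 0.057). The other 9 of those genes had limma adjusted p from 0.179 for HIST1H2AC upward. Over all 39 the median log2 change of the ratio was 2.22, beside 0.71 for the 8002 genes. That gap was not tested, and 15 of the 39 were at 0 in the sgNS footprints.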

How the data were processed

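Reads were 51 bases long, from one end. Per the submitters' processing notes, the authors used STAR, whose version is not given in the sources used here, then RSEM 1.2.31, on build GRCh38. The table they deposited holds TPM for 26830 symbols in 8 libraries; TPM gives shares, not amounts, and depth is unknown. Near-identical histone genes share reads that the authors' estimate splits between them, so sums are given beside single genes.

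The members and gene lists were chosen with earlier results of these data known. Values were fitted on the log2(TPM + 1) scale by limma 3.58.1 (R 4.3.3) with an intensity trend, where a gene's mean TPM was 1 or more. P-values were adjusted by Benjamini-Hochberg over all genes tested, with a threshold of 0.05. For the inputs the trend alone set the variance of each gene (prior degrees of freedom Inf). Input libraries were centred on the median tested gene. Footprint libraries were each divided by a factor, the median ratio to the geometric mean over the 1870 genes above 0 in all 4, which keeps 0 at 0. The footprint to input ratio was the interaction over all 8 libraries. The sgNS group has n = 1 and is assumed to vary like the sgMETTL16 cultures (n = 3), whose different guides add to the spread that p-values measure. Scripts were tested on simulated data.

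Input and footprint libraries with the same guide number come from the same culture, so the numbers pair them. Their deviations from the group means correlated at 0.046, 0.006 and 0.038 for sgMETTL16-1, sgMETTL16-2 and sgMETTL16-3 across genes. Sums were compared by exact two-sided permutation (Python 3.11.15, scipy 1.17.1 and pandas 2.3.3 for the rest).

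Genes given in full were, for each type, the 2 highest in mean input TPM, the lowest and highest change, every tested gene that was not called, and the genes above 0 in all 4 footprint libraries. From each related list they were the called genes, or else the 2 with the smallest p. HIST4H4, HIST1H4J, HIST1H2AI, HIST1H2AJ and the best-matched and worst-matched of the counted head-to-head pairs were added after their values were seen. Alternatives were other pseudocounts, filters and scalings, no trend, a replicate block, and leaving out each sgMETTL16 culture.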

Additional observations from a re-analysis of the deposited data

How the results depend on the processing

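All 56 tested histone genes that entered the input fit kept a log2 change below 0 under every alternative in which they were tested. The count called lower was 51; it was 47 to 53 with other pseudocounts, filters, quantile normalization, a rescaling over protein-coding genes or no trend. On TPM as deposited limma called 0, with a median change of -1.46. There 46 of 56 had an unadjusted p under 0.05, beside 1609 of all 10967 genes. Leaving out 1 sgMETTL16 culture at a time gave 27 to 54, with 27 without sgMETTL16-1. The cause of either loss was not tested. The summed input TPM of the histone genes stayed below sgNS under all its alternatives, at log2 differences of -1.90 to -1.48.

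For footprints, limma called 2 of 39 histone genes. It called 1 with a pseudocount of 10, with a mean TPM of 10 or more, or on TPM as deposited. Centring on the median tested gene gave 0. There 12 of 39 had an unadjusted p under 0.05, beside 1189 of all 9297 genes. Without sgMETTL16-1, sgMETTL16-2 or sgMETTL16-3 it called 0. Unadjusted p was then under 0.05 for 4 of 38, 2 of 36 and 15 of 39 histone genes in turn. Over all genes it was so for 1420 of 8575, 1596 of 8174 and 1942 of 8875. For the footprint to input ratio, 2 calls became 3 with a mean TPM of 10 or more in both kinds. They became 0 with a pseudocount of 10 (8 unadjusted), on TPM as deposited (3) and with the replicate block (6), which left none of the 59 calls over all 8002 genes and was fitted for this ratio only. Leaving out sgMETTL16-1, sgMETTL16-2 or sgMETTL16-3 also gave 0. The unadjusted counts were then 6 of 38, 4 of 36 and 18 of 39 histone genes. Over all genes they were 1192 of 7427, 1465 of 6919 and 1874 of 7818. Several of these settings test fewer samples; the other causes were not tested. Depth is unknown, so a histone gene listed at 0 in the footprints was not detected rather than shown to be absent.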

Other observations

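The U7 small nuclear RNA gene RNU7-1, whose RNA guides the cut at the 3′ end of replication-dependent histone mRNAs, was listed at 0 in all 4 inputs. Its footprint value was 0 in sgNS, 1969.9 TPM in sgMETTL16-1, 3977 TPM in sgMETTL16-2 and 10397 TPM in sgMETTL16-3 (limma adjusted p = 0.080). It is a short RNA that ribosomes do not translate, TPM gives short RNAs large values, and it was named after its values were seen.

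H3F3C, which encodes the H3.5 form, did not exceed 0.36 TPM in any input. Its footprints were listed at 0 in sgNS, and the METTL16 guides gave 187, 144 and 63.3 TPM in turn (limma adjusted p = 0.033). H3F3A, which encodes H3.3 as H3F3B does, was listed at 0 in all 8 libraries, while H3F3B stood at 30.2 to 63.9 TPM in the inputs. How reads were shared out between related copies was not tested.

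The histone share of protein-coding TPM was 13.7% in the sgNS input and 4.81%, 3.09% and 3.43% with the METTL16 guides in turn. On this denominator sgMETTL16-2 was the lowest of the 3, where on TPM as deposited sgMETTL16-3 was. After centring, sgMETTL16-2 was the lowest in 54 of the 56 tested histone genes.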
